A study of Mus musculus with 8 samples.

Results

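Voltage-gated sodium channels are built from a pore-forming alpha subunit and auxiliary beta subunits. The genes described here were chosen by name, the alpha genes Scn1a, Scn2a, Scn3a and Scn8a and the beta genes Scn2b, Scn3b and Scn4b. All 7 had values, among 14353 genes in the table.

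The data came from the ventral pallidum (VP), a basal forebrain region, of untreated vGluT2-Cre x RiboTag mice, labelled homozygous for VGluT2-Cre and heterozygous for Rpl22. In these mice, Cre made from the vGluT2 locus switches on an HA-tagged ribosomal protein, Rpl22, so the tag marks cells with a history of vGluT2 expression. TRAP libraries held RNA pulled down with tagged ribosomes (labelled glutamatergic neurons), and INPUT libraries held RNA of the lysate from the same tissue (labelled as neurons of any kind and glia). Both fractions were sequenced from each of 4 pools of mice, which gave 4 TRAP and 4 INPUT libraries. Values by pool are given in the order VP1.6, VP2.2, VP2.6, then VP2.11. The pools held 7 to 11 mice of both sexes, 38 in all, aged 9 to 12 weeks in VP1.6 and 10 to 16 weeks in the other pools. The methods describe more samples and mice than the 4 labelled pools analysed here. Both fractions thus share the genotype, and by the methods the punches could include neighbouring striatum. INPUT is the total lysate in the labels, while the methods in one place name an unbound fraction.

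The alpha subunit forms the pore, opens on depolarisation to start the action potential and closes again within milliseconds through its inactivation gate. The beta subunits cross the membrane once, carry an immunoglobulin-like domain outside the cell, and modify gating, surface delivery and cell adhesion. Neurons gather these channels at the axon initial segment and the nodes of Ranvier, where spikes begin and are renewed.

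The intracellular tail of Scn4b is shown because it is known to enter and block the open pore, and because Scn4b was the member that fell in TRAP. The line gives coding sequence of the GENCODE M21 transcript (GRCm38, 5′ to 3′), with capitals for the run of hydrophobic codons and a threonine codon just inside the membrane.
Scn4b: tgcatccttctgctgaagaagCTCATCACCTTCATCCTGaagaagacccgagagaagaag
Of these 60 bases, 59 lie in exon 4 of 5 (chr9:45149337-45149395, plus strand) and the last base lies in exon 5.

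Likeness between members matters for counting, because a read that fits more than 1 gene is not counted as unique. Of the 75-base windows of the transcripts, 2.59% in Scn1a, 3.81% in Scn2a and 5.08% in Scn3a occurred in a transcript of another gene, and none did in Scn8a or the beta genes. Across the whole coding sequence the alpha genes were 74.2% to 83.8% identical, with Scn8a the most distant from the rest, and the beta genes 53.8% to 56.9%. The exons of the members shared no base with the exons of another annotated gene. Scn1a, Scn2a and Scn3a are neighbours on chromosome 2, and Scn2b, Scn3b and Scn4b all lie on chromosome 9.

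TRAP libraries held more Scn1a, Scn2a and Scn8a mRNA than INPUT libraries of the same pools, about 2-fold or more, and less Scn4b mRNA. Scn3a, Scn2b and Scn3b did not pass the test. So 3 members were higher and 1 was lower of 7, by limma at an adjusted p of 0.05, where 47.9% of the 14249 genes tested passed, 23.2% higher in TRAP and 24.8% lower. The 4 TRAP and 4 INPUT values did not overlap for these same 4 members, as for 47.7% of all genes, 23.3% with TRAP higher. The members' median log2 fold change was 0.31, against -0.05 over all genes tested. With the pool as a block, the same 4 members passed, against 32.2% of all genes (15.4% higher and 16.8% lower). Values are CPM (reads of a gene as a share of the library, scaled by the authors), taken back from the deposited log2 CPM, and in bulk RNA fewer cells of a type and less RNA per cell cannot be told apart.

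**Figure D1:**
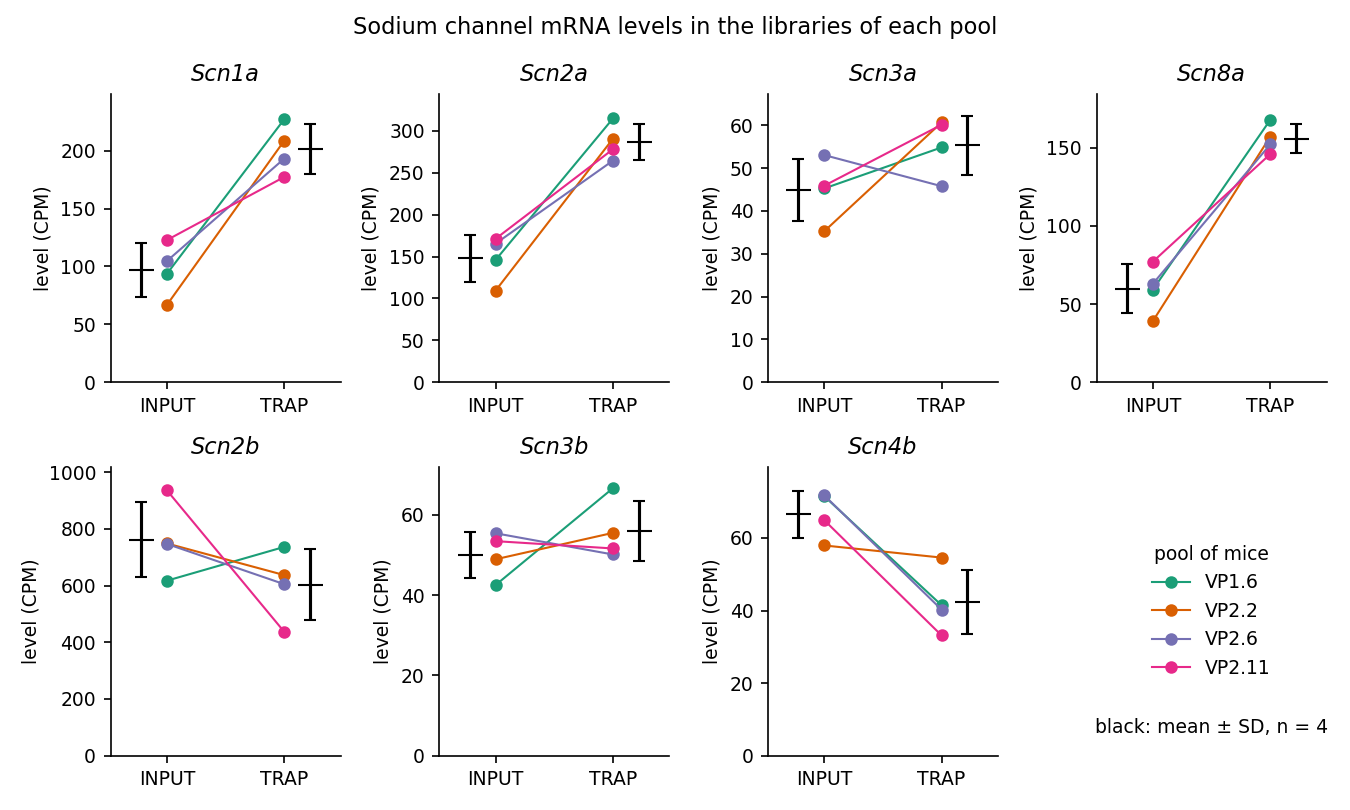
Level of each sodium channel gene in CPM (vertical axes, starting at 0) in the INPUT and TRAP library of each pool, with lines joining libraries of 1 pool and black marks giving the mean ± SD of 4 libraries. Scn1a, Scn2a and Scn8a rose along every line, Scn4b fell along every line, and the lines of Scn3a, Scn2b and Scn3b crossed.

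Scn8a (chr15:100869858-101045938, plus strand), the main channel of the mature axon initial segment and of nodes, changed most among the members. Its level was 168, 157, 152 and 146 CPM in the TRAP libraries, by pool, and 59.3, 39.2, 63.0 and 77.2 CPM in the INPUT libraries. The fractions did not overlap, and the lowest TRAP library stood well above the highest INPUT library. The mean was 156 ± 9.26 CPM in TRAP and 59.7 ± 15.7 CPM in INPUT (SD, n = 4). The fold change was 2.68, a log2 fold change of 1.42 with a standard error (SE) of 0.19 and a limma adjusted p of 0.000301. It ranked 545 from the top among 14249 fold changes. With the pool as a block, the limma adjusted p of Scn8a was 0.000454.

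Scn1a (chr2:66270778-66440840, minus strand) is best known from fast-spiking inhibitory neurons, where loss of a copy causes epilepsy. Its level was 227, 209, 193 and 177 CPM in the TRAP libraries, by pool, and 93.7, 66.8, 105 and 123 CPM in INPUT. All TRAP values lay above all INPUT values. The means were 202 ± 21.4 CPM in TRAP and 97.0 ± 23.4 CPM in INPUT (SD, n = 4). The log2 fold change was 1.08 (SE 0.18, limma adjusted p = 0.00101, and 0.00285 with the pool as a block).

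Scn2a (chr2:65620771-65767447, plus strand) is the channel of young axon initial segments and of unmyelinated axons, mostly in excitatory neurons. Its level was 315, 291, 265 and 278 CPM in the TRAP libraries, by pool, and 146, 109, 166 and 171 CPM in INPUT. Here, too, the fractions were apart in every library. The means were 287 ± 21.4 CPM in TRAP and 148 ± 28.0 CPM in INPUT (SD, n = 4). The log2 fold change was 0.97 (SE 0.16, limma adjusted p = 0.000789, and 0.00402 with the pool as a block).

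Scn3a (chr2:65457118-65567627, minus strand), a channel mostly of the developing brain, was the alpha gene whose fractions overlapped. Its level was 54.8, 60.7, 45.8 and 60.1 CPM in the TRAP libraries, by pool, and 45.3, 35.2, 53.0 and 45.9 CPM in INPUT. TRAP was above INPUT in 3 pools and below it in VP2.6. The log2 difference was 0.31, with a 95% interval from -0.04 to 0.66 for the fraction alone (limma adjusted p = 0.130). With the pool as a block the interval was wider, from -0.18 to 0.80 (limma adjusted p = 0.326). Both intervals held 0 as well as a rise of 0.66.

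The size of the alpha gene differences varied between pools. For Scn1a the log2 difference was 1.28, 1.64, 0.88 and 0.53 by pool, for Scn2a 1.11, 1.41, 0.68 and 0.70, for Scn8a 1.50, 2.00, 1.27 and 0.92, and for Scn3a 0.28, 0.78, -0.21 and 0.39. VP2.2 had the largest difference for each, while the lowest was in VP2.11 for Scn1a and Scn8a and in VP2.6 for Scn2a and Scn3a. INPUT VP2.2 held the lowest INPUT level of all 4 alpha genes. Without that library the log2 fold changes were 0.92 for Scn1a, 0.84 for Scn2a and 1.24 for Scn8a, and each still passed the test.

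**Figure D2:**
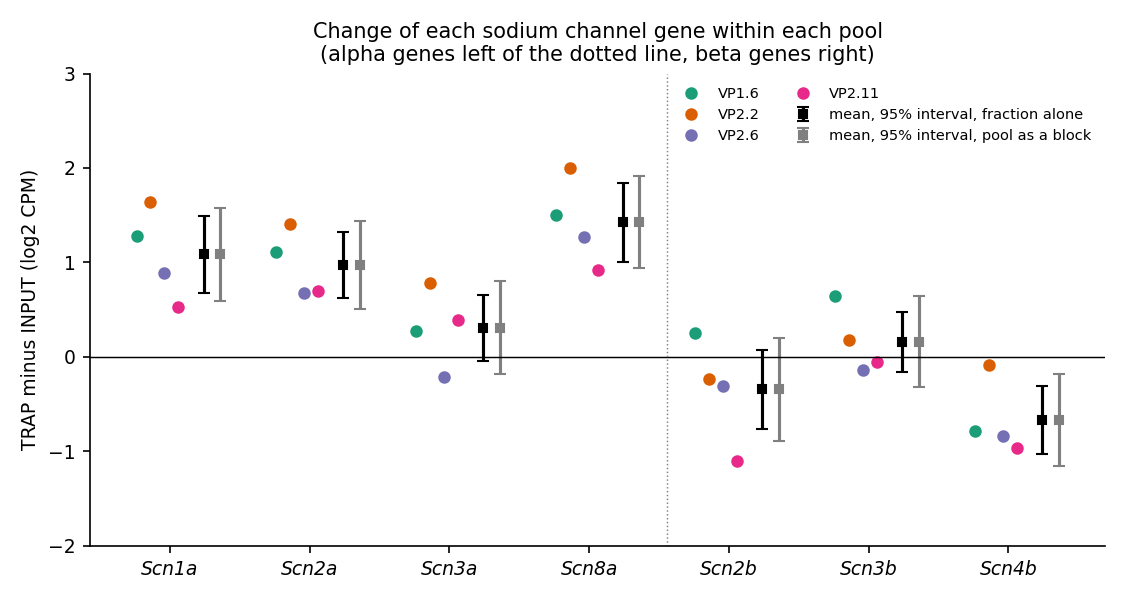
TRAP minus INPUT in log2 CPM for each gene (vertical axis), with 1 coloured point per pool and the mean with its 95% interval from limma, for the fraction alone (black) and with the pool as a block (grey). Scn1a, Scn2a and Scn8a lay above 0 and Scn4b below 0 in every pool, and the points of Scn3a, Scn2b and Scn3b fell on both sides of 0.

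Scn2b (chr9:45117782-45130070, plus strand) encodes a beta subunit joined to the alpha subunit by a disulfide bond, and had the highest level of the family. It was at 737, 637, 605 and 437 CPM in the TRAP libraries, by pool, and at 617, 749, 747 and 936 CPM in INPUT. The fractions overlapped, with TRAP higher in VP1.6 and lower in the other pools. The log2 difference ran from 0.25 in VP1.6 to -1.10 in VP2.11, with a mean of -0.35 and a 95% interval from -0.76 to 0.07 (limma adjusted p = 0.155). It was -0.09 without pool VP2.11, -0.20 without the TRAP library of VP2.11 and -0.55 without pool VP1.6. With the pool as a block the 95% interval of Scn2b was wider, from -0.89 to 0.20 (limma adjusted p = 0.324).

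Scn3b (chr9:40269217-40291618, plus strand) encodes a beta subunit that binds without a disulfide bond. It was at 66.6, 55.5, 50.1 and 51.6 CPM in the TRAP libraries, by pool, and at 42.5, 48.9, 55.4 and 53.4 CPM in INPUT. TRAP was higher in 2 pools and lower in 2. The mean log2 difference of 0.16 had a 95% interval from -0.16 to 0.47 (limma adjusted p = 0.377), and without VP1.6 it was -0.0042. With the pool as a block the interval was wider, from -0.32 to 0.64 (limma adjusted p = 0.620).

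Scn4b (chr9:45138395-45154152, plus strand) encodes the beta subunit linked to resurgent sodium current, and is abundant in striatal medium spiny neurons and cerebellar Purkinje cells. It was at 41.4, 54.6, 40.2 and 33.1 CPM in the TRAP libraries, by pool, and at 71.5, 57.9, 71.7 and 64.9 CPM in INPUT. The fractions did not overlap, but in VP2.2 they were close, with a log2 difference of -0.09. The means were 42.3 ± 8.95 CPM in TRAP and 66.5 ± 6.54 CPM in INPUT (SD, n = 4), and the log2 level fell by 0.67 (SE 0.16, limma adjusted p = 0.00715, and 0.0365 with the pool as a block). The call was lost without pool VP1.6 (limma adjusted p = 0.0550) and without pool VP2.6 (0.0585), and with the block it was also lost without pool VP2.11 (0.129).

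Most medium spiny neuron markers were also lower in TRAP. Of Ppp1r1b, Drd1, Drd2, Adora2a and Rgs9, 4 of 5 were lower in TRAP, all but Rgs9, and none was at 0, Drd2 being the lowest in TRAP at 5.32 CPM. Their summed level was 229, 305, 261 and 280 CPM in the TRAP libraries, by pool, and 444 to 611 CPM in INPUT. TRAP VP2.2, with the highest Scn4b level among TRAP libraries, also had the highest sum of these markers and of the astrocyte and oligodendrocyte lists. The same library was highest for the GABAergic, cholinergic, oligodendrocyte precursor and microglia lists. It was not highest for the glutamatergic, parvalbumin, pan-neuronal and endothelial lists. In INPUT the reverse was seen. INPUT VP2.2 had the lowest Scn4b level and the highest sum of the medium spiny neuron markers (611 CPM). Both observations rest on a single pool. The part of these cells in the Scn4b difference was not tested.

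The alpha genes as a group shifted towards TRAP relative to the beta genes in each pool. The mean log2 difference of the alpha genes less that of the beta genes was 1.00, 1.51, 1.08 and 1.34 by pool, a mean of 1.23 ± 0.23 (SD, n = 4 pools). This comparison between genes of 1 library does not depend on how that library was scaled. It does go along with exon length, given further on.

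Ratios between members were then compared between fractions, which also leaves out the scaling. Of 9 pairs, the 6 among alpha genes and the 3 among beta genes, 7 had a log2 ratio that did not overlap between fractions, as did 46.4% of all pairs of genes tested. The 9 pairs share members and are not independent. For each of these 7 the two-sided exact permutation test gave p = 0.0286, the smallest that 4 against 4 libraries allow, and 0.0367 after Benjamini-Hochberg adjustment over the 9 pairs. Relative to Scn8a, Scn3a was 1.12 lower in TRAP than in INPUT on the log2 scale, Scn2a 0.45 lower and Scn1a 0.34 lower. The ratio of Scn1a to Scn2a differed by 0.11 with overlapping values (exact permutation p = 0.143, adjusted 0.161). Among the beta genes, Scn3b rose by 0.83 relative to Scn4b and by 0.50 relative to Scn2b, while the ratio of Scn2b to Scn4b differed by 0.32 (exact permutation p = 0.171). The exact permutation test of 4 against 4 libraries leaves out the pairing by pool. An exact sign-flip permutation test over the 4 pools keeps it, but cannot go below 0.125. The exact sign-flip permutation test gave p = 0.125 for each of the 7 pairs that did not overlap. So none of the 7 calls held with the pairing kept, and with 4 pools that test could not have made a call.

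Levels of different genes are compared per kb of annotated exon. Summed over the alpha genes, the level was 55.0 ± 4.14 CPM per kb in TRAP and 27.7 ± 5.73 CPM per kb in INPUT (SD, n = 4). Of that sum, Scn2a made up 41.0% in TRAP and 42.1% in INPUT, and Scn1a 32.9% and 31.2%. Scn8a made up 18.0% ± 0.518 in TRAP and 13.5% ± 1.01 in INPUT, and Scn3a 8.10% ± 1.05 and 13.1% ± 1.38 (SD, n = 4). So Scn8a had a larger share of the alpha sum in TRAP and Scn3a a smaller share, with the share of Scn2a near the same in both. The level of Scn3a itself was 4.44 CPM per kb in TRAP and 3.60 CPM per kb in INPUT.

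The beta genes summed to 148 ± 28.8 CPM per kb in TRAP and 186 ± 28.4 CPM per kb in INPUT (SD, n = 4). Scn2b made up 87.2% of the sum in TRAP and 87.7% in INPUT, Scn3b 7.03% and 4.96%, and Scn4b 5.78% and 7.32%.

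In TRAP the order per kb was Scn2b at 130 CPM per kb, Scn2a at 22.6, Scn1a at 18.1, Scn3b at 10.2, Scn8a at 9.88, Scn4b at 8.50 and Scn3a at 4.44. Scn3b, Scn8a and Scn4b overlapped with their neighbours in this order, and the other neighbours did not overlap. In INPUT the order was Scn2b at 164 CPM per kb, Scn4b at 13.4, Scn2a at 11.6, Scn3b at 9.17, Scn1a at 8.70, Scn8a at 3.78 and Scn3a at 3.60. There Scn4b, Scn2a, Scn3b and Scn1a ran into each other, and so did Scn8a and Scn3a. Scn8a thus stood at the level of Scn3a in INPUT and above it in every library of TRAP. With the longest transcript as the length, or without pool VP1.6, Scn8a and Scn3b changed places in TRAP. With the longest transcript as the length, Scn2a also passed Scn4b in INPUT.

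**Figure D3:**
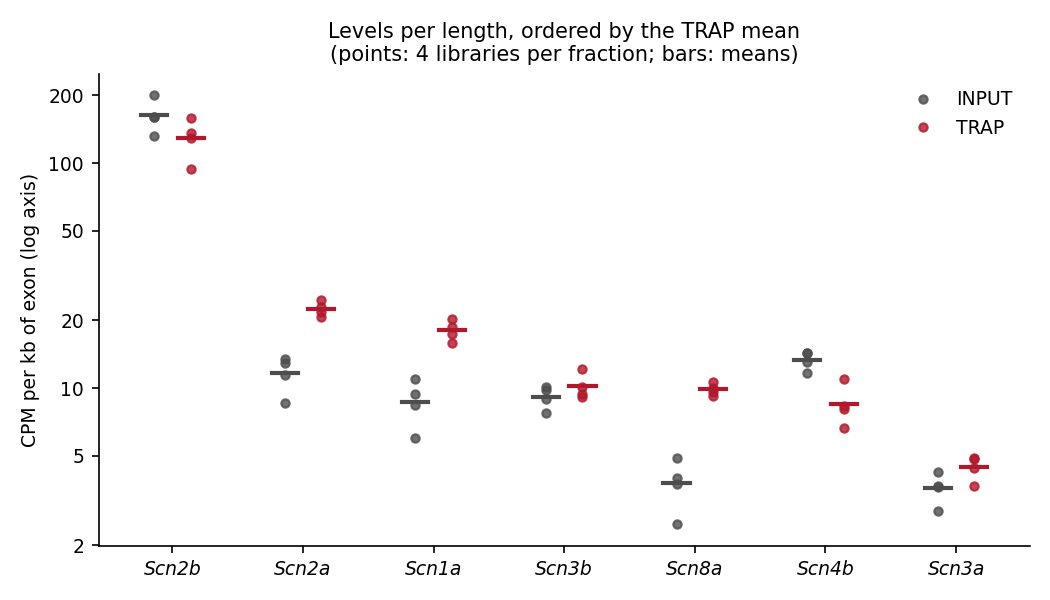
Level per kb of exon (vertical log axis, CPM per kb) for each gene, ordered by the TRAP mean, with a point per library and bars at the means of 4 libraries. Scn2b stood far above the rest in both fractions, and Scn8a lay at 3.78 in INPUT, beside Scn3a, and at 9.88 in TRAP.

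Exon length differed between the subunits and went along with the fold change over all genes. The alpha genes had 11.1 kb (Scn1a), 12.7 kb (Scn2a), 12.5 kb (Scn3a) and 15.8 kb (Scn8a) of exon, and the beta genes 4.66 kb (Scn2b), 5.46 kb (Scn3b) and 4.98 kb (Scn4b). Across the 14249 genes tested, Spearman's rho between exon length and log2 fold change was 0.41, as a description over genes of the same libraries. Genes under 2 kb had a median of -0.76 and 6.12% of them were higher in TRAP, while genes of 10 kb or more had a median of 0.49 and 45.8% were higher.

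Among the 1019 genes at least as long as Scn1a, the median log2 fold change was 0.53 and 47.0% were higher in TRAP. Scn8a was matched or passed by 86 of these genes, counting itself. With the trend on exon length taken out of the values, the log2 fold change was 0.88 for Scn8a, 0.66 for Scn1a and 0.51 for Scn2a, and -0.75 for Scn4b. These 4 passed limma's test also on those values, where 46.5% of all genes passed (23.5% higher and 23.0% lower). Scn3a turned to -0.15 and did not pass. The part of exon length in the difference between alpha and beta genes was not tested further.

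**Figure D4:**
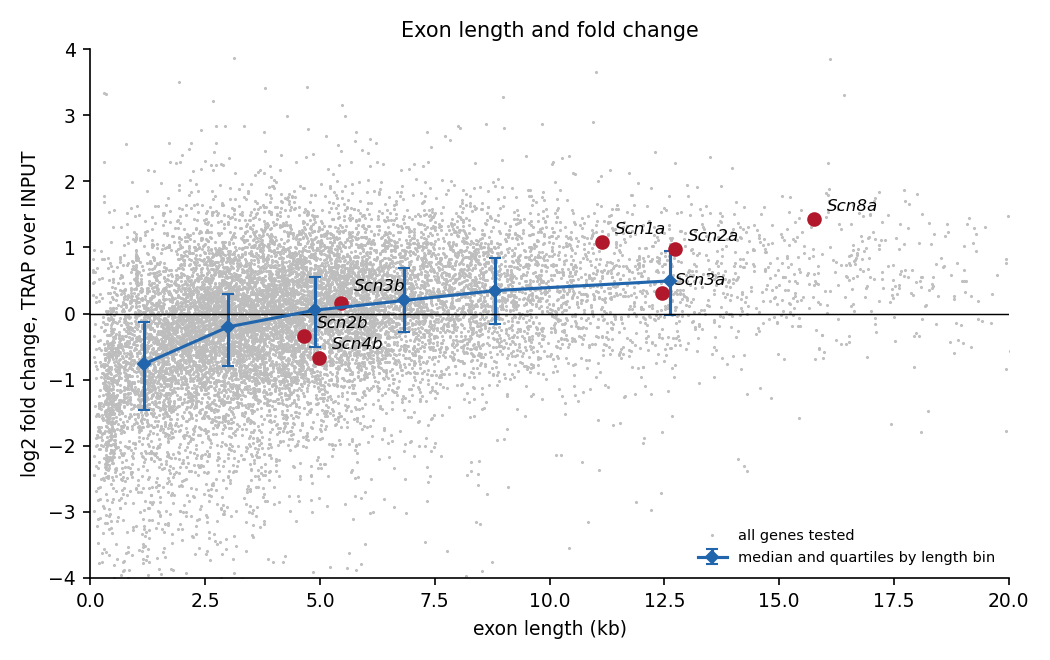
Log2 fold change, TRAP over INPUT (vertical axis), against exon length in kb (horizontal axis) for all genes tested (grey), with the median and quartiles of 6 length bins at their median length (blue) and the members named (red). The axes stop at 20 kb and at 4 either way, which leaves 204 genes outside. Scn1a and Scn2a lay above the blue line, Scn8a above its last point, Scn3a just under it, and Scn4b below it.

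Of 5 related sodium channel genes, Scn7a and Scn9a had values, and Scn4a, Scn10a and Scn11a had none. Scn7a, which encodes a sodium-level sensor and not a voltage-gated channel, passed the test and Scn9a, with a log2 difference of 0.29, did not (limma adjusted p = 0.170). Scn7a was at 3.64, 4.24, 5.98 and 3.92 CPM in the TRAP libraries, by pool, and at 0.591, 0.450, 0.308 and 2.17 CPM in INPUT, so it was low in both. Its log2 fold change was 2.75 (SE 0.55, limma adjusted p = 0.00245).

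Partner proteins that anchor, escort or degrade sodium channels were mostly higher in TRAP or did not pass. Of 24 such genes, all with values, 12 were higher and 2 lower, against 23.2% higher and 24.8% lower over all genes. With the pool as a block 10 were higher and 1 lower, against 15.4% and 16.8%. Their median log2 fold change was 0.48, against -0.05 for all genes. With the length trend removed, 10 were higher and 4 lower, against 23.5% and 23.0%. The list was drawn up with results of these libraries known.

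L1cam, an ankyrin-binding cell adhesion molecule, was at 168 ± 57.3 CPM in TRAP and 32.9 ± 2.21 CPM in INPUT (SD, n = 4), a log2 fold change of 2.30 (SE 0.21, limma adjusted p = 7.4e-05). Cntn1, a contactin that binds sodium channels and raises their surface level, had a log2 fold change of 1.43 (SE 0.19), with 547 ± 43.6 CPM in TRAP and 207 ± 48.3 CPM in INPUT. Nedd4, a ubiquitin ligase whose family removes channels from the membrane, had a log2 fold change of 1.52 (SE 0.28).

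The fibroblast growth factor homologous factors, which bind the tail of the alpha subunit, went in different directions. Fgf12 was higher in TRAP by 0.62 on the log2 scale (limma adjusted p = 0.00276, and 0.0371 with the pool as a block). With the block, the Fgf12 call was lost without pool VP1.6 (0.180), VP2.6 (0.197) or VP2.11 (0.0794), and with the length trend removed (0.0974). Fgf13 had a log2 difference of 0.50 (limma adjusted p = 0.00748) that did not pass with the block (0.0796), but passed with the block and the length trend removed (0.0357). Fgf14 fell by 0.74 on the log2 scale, from 77.2 ± 9.47 CPM in INPUT to 47.1 ± 11.2 CPM in TRAP (SD, n = 4, limma adjusted p = 0.00731, and 0.0257 with the block). The Fgf14 call was lost without pool VP2.6 (limma adjusted p = 0.0687), and with the block also without pool VP2.11 (0.105).

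Ank3 and Sptbn4, scaffold genes of the axon initial segment, did not pass. Ank3, which encodes ankyrin-G, the anchor of sodium channels there, had a log2 difference of 0.41 (SE 0.16, limma adjusted p = 0.0520). It passed after median centring (0.44, limma adjusted p = 0.0240), among genes of at least 5 CPM on average (0.0486) and without INPUT VP1.6 (0.0498), and turned to -0.38 with the length trend removed, its exons adding up to 34.8 kb. Sptbn4, the spectrin under that membrane, had a log2 difference of 0.20 (SE 0.23). Prrt2, which restrains channels of the Scn2a and Scn8a type, had -0.32 (SE 0.50) at 1.44 CPM in TRAP and 1.74 CPM in INPUT. Nfasc and Nrcam, also on the partner list, were higher in TRAP and passed with the fraction alone and with the block.

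**Figure D5:**
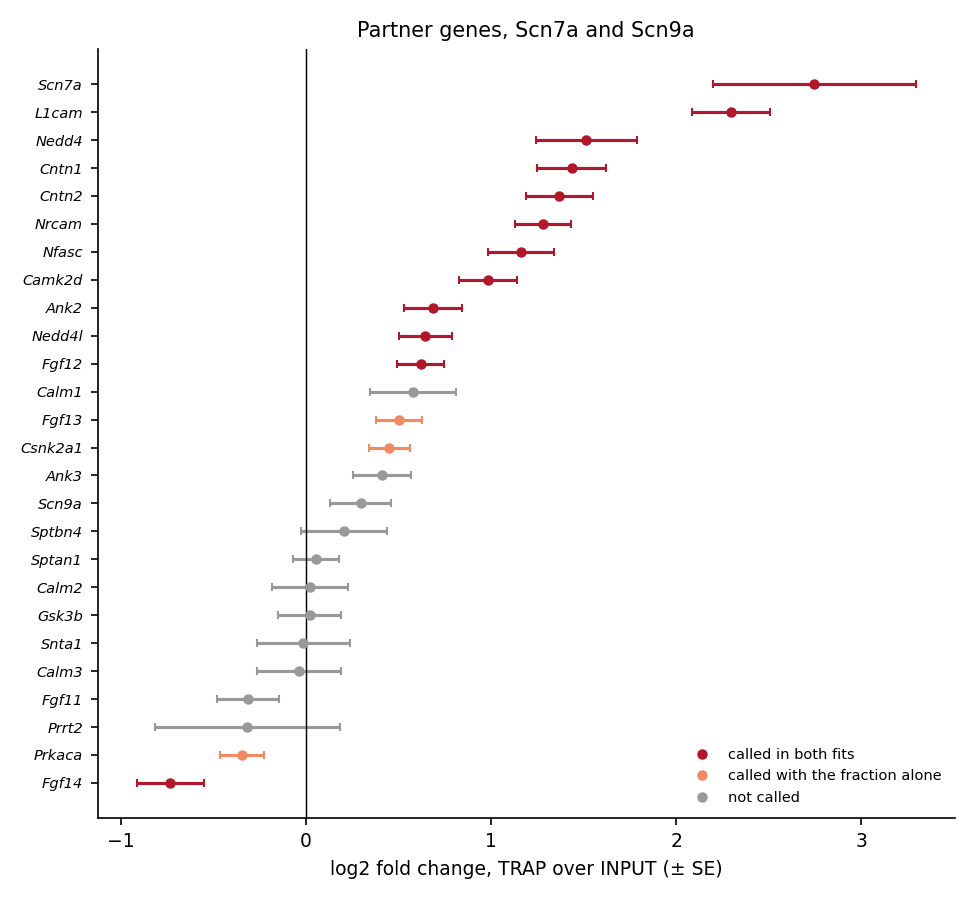
Log2 fold change, TRAP over INPUT, with its SE (horizontal axis) for the partner genes and for Scn7a and Scn9a, coloured by whether limma's test was passed with the fraction alone and with the pool as a block. Scn7a (2.75) and L1cam (2.30) stood at the top and Fgf14 (-0.74) at the bottom.

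The genes whose 4 pool differences lay nearest to those of a member were found by the root mean square distance over pools, in log2 units. For Scn8a the nearest were Kcnma1 (0.109), which encodes the BK potassium channel, Prokr2 (0.119) and Atrx (0.123). For Scn1a they were Ric3 (0.0830), Exoc2 (0.0907) and Far2 (0.0962), and for Scn2a they were Igsf3 (0.0733), Akap8l (0.0757) and Usp15 (0.0776). For Scn3a they were Ttc30b (0.0333), Ptprg (0.0810) and Mfn2 (0.0926).

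Among the beta genes, Scn2b lay nearest to Fam81a (0.0359), Orai2 (0.0672) and Lrrc4 (0.100), all higher in VP1.6 and lowest in VP2.11. Scn3b lay nearest to Runx2 (0.0849), Soat1 (0.0905) and Slc16a7 (0.0936), and Scn4b to Cyp2j6 (0.102), Ube2d2a (0.106) and Bcorl1 (0.112). With 4 pools and 14249 genes, near neighbours are found for any gene, and the distances describe these pools.

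The labelled cell type was checked with markers. Slc17a6, the vGluT2 gene, was at 143 ± 13.6 CPM in TRAP and 25.9 ± 10.3 CPM in INPUT (SD, n = 4), a log2 fold change of 2.55. In TRAP, 2 of 3 glutamatergic and 5 of 5 pan-neuronal markers were higher, the latter 4 of 5 with the block. Of the glial markers, 4 of 5 astrocyte, 4 of 5 oligodendrocyte and 5 of 5 microglia markers were lower, and the oligodendrocyte gene Mag was higher. With the block, Mag did not pass and 4 of 5 microglia markers were lower. Of 4 oligodendrocyte precursor markers, 2 were lower and Cspg4 was higher, with or without the block. Cspg4 was at 19.9 CPM in TRAP and 5.31 CPM in INPUT, a log2 fold change of 1.98. Of the endothelial genes with values, Flt1 was higher in TRAP and Pecam1 did not pass. The microglial gene Tmem119 was near 0 in TRAP (0.171 CPM), and the other glial markers were not. Of the GABAergic genes, Slc32a1, the vesicular transporter of GABA, was lower in TRAP, with a log2 fold change of -1.26 (limma adjusted p = 0.00267). Gad1 and Gad2, which make GABA, were at 613 and 528 CPM in TRAP and did not pass in either direction. Each library's correlation with the mean of the others of its fraction was 0.939 to 0.990, lowest for TRAP VP2.11. Total reads are unknown. Low values of VP2.2 and VP2.6 showed only a ratio of library sizes after the authors' scaling, INPUT being about 3.02 and 1.99 times TRAP.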

How the data were processed

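RNA of TRAP and INPUT libraries from 4 pools was measured. The authors aligned reads with STAR 2.5.1a to an Ensembl mouse assembly, counted unique reads per gene with featureCounts, scaled them with edgeR's TMM factors, left out low genes and fitted limma with voom quality weights. The per-library values they deposited are log2 CPM. Whether these hold an adjustment beyond that scaling is not stated. INPUT VP1.6 and both VP2.11 libraries are rounded to 3 significant digits. The authors' own log2 fold changes, p-values and fold score, also deposited, were not used. Every library column was matched to a label.

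Of 14398 entries, 45 repeated a gene. The 14249 genes that exceeded 1 CPM in 3 libraries or more entered limma 3.58.1 (R 4.3.3), with a variance trend, fraction as the only term, and Benjamini-Hochberg adjusted p under 0.05. All 7 members passed the filter. Voom weights could not be rebuilt without counts, so array weights were an alternative. Pool was the replicate block, since the labels name a TRAP and an INPUT library of each pool and, by the methods, both come from a shared homogenate. Libraries of the same pool deviated from their fraction means with correlations of -0.745 to -0.495 across genes, and those of different pools with 0.0457 to 0.441. The p-values measure spread between pools, and with the fraction alone they take libraries of the same pool as independent. With negative correlations within pools, that makes the SE of a difference too small. The SE and adjusted p of each member were larger with the block, the SE of Scn2a being 0.16 without it and 0.22 with it. Fold changes are differences of log2 CPM. Exon lengths, positions and sequences came from GENCODE M21 (GRCm38). Each test was tested on simulated data.

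The members, the partner and marker lists and the rule for named genes were chosen with earlier results of these data known. By that rule all 7 members are given, the 4 called related genes with the largest change, some preset partners, and the 3 nearest genes of each member. Nfasc and Nrcam are named outside that rule. The marker lists of GABAergic, cholinergic, parvalbumin, precursor and endothelial cells gave 0, 1, 1, 1 and 1 genes higher and 1, 1, 1, 2 and 0 lower. Some genes and sequences are not reported here, and the lists were counted without them.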

Additional observations from a re-analysis of the deposited data

Results flagged for a closer look

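Dixon's test was run on 34 groups of 4 values, those of the members and the related genes named by the rule in each fraction. It picked out a distant library in 2, where chance gives about 1.7. Both were partner genes in INPUT VP2.2. Fgf13 was at 5.86 log2 CPM there, against 6.15 to 6.20 in the other INPUT libraries. Cntn1 was at 7.08 log2 CPM there, against 7.82 to 7.90. No sodium channel member had such a value in either fraction, although INPUT VP2.2 held the lowest INPUT level of each alpha gene.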

How the results depend on the processing

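The calls of Scn1a, Scn2a and Scn8a held with the pool as a replicate block, array weights, no filter or a stricter one, no variance trend, median centring, quantile normalization, the length trend removed, and each pool or library left out. With the block and the length trend removed together, Scn2a passed narrowly (limma adjusted p = 0.0465), against 0.0160 for Scn1a and 0.00281 for Scn8a. The block changed no member's call, and the count over all genes went from 6830 to 4592. With a log2 fold change of at least 1 also required, 3528 genes, 2 members (Scn1a and Scn8a) and 6 partners passed. Leaving out a pool or a library gave 3206 to 7153 genes, 3 to 4 members and 7 to 15 partners, with Scn4b the member lost. With the length trend removed and the block, 8 partners passed. No member or related gene described with values that had passed changed sign, and some that had not passed did. With the length trend removed Scn3a was at -0.15, Scn9a at -0.18, Ank3 at -0.38 (adjusted p = 0.0387 in the fit without the block) and Sptbn4 at -0.16, with or without the block, and Prrt2 was at 0.35 after quantile normalization. With a pool or library left out, Scn3b ran from -0.0042 to 0.26, Sptbn4 from -0.018 to 0.35 and Prrt2 from -0.69 to 0.39. The cause was not tested. Removing the length trend from the ratios, chosen after seeing the data, changed no call among the 9 pairs in the test without pairing. With 3 pools the exact test of a ratio cannot go below 0.10.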
